A study of Homo sapiens with 6 samples.

Results

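The genes described here encode 10 surface or secreted molecules by which tumour cells restrain immune cells: CD274, CD276, CD47, PVR, NECTIN2, VSIR, VTCN1, LGALS9, ENTPD1 and NT5E. They were chosen by symbol from the deposited table of 60605 genes, and each symbol matched 1 row. The libraries came from SW480, an established cell line from a human colon adenocarcinoma, infected with a lentivirus and selected with puromycin. In 3 libraries the virus carried TIPE, taken here as the gene TNFAIP8, and in the other 3 it was empty, here called vector. Both groups thus share the virus and the selection. The sources used here say neither whether the selected cells were a pool or a clone nor whether each library had its own infection. P-values therefore set the difference between the groups only against the spread among these libraries, and that spread may be technical.

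Checkpoint ligands bind inhibitory receptors on T cells and natural killer cells and damp their activation. The B7 family supplies several of them: CD274 encodes PD-L1, the ligand of PD-1, while CD276 (B7-H3), VTCN1 (B7-H4) and VSIR (VISTA) are relatives. PVR (CD155) and NECTIN2 (CD112) are cell adhesion molecules that bind the activating receptor CD226 and the inhibitory receptors TIGIT, CD96 or PVRIG. CD47 tells macrophages not to engulf a cell by binding SIRPA, which is the don't-eat-me signal, and galectin-9 (LGALS9) binds TIM-3. The ectoenzymes CD39 (ENTPD1) and CD73 (NT5E) act in turn to convert extracellular ATP to adenosine, which suppresses T cells.

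Promoter windows are shown for CD274, as the best known of these ligands, and for VSIR, CD47 and PVR, which differed between the groups in the main test. ENTPD1, which has several windows, also differed in that test and is not shown. CD47 and ENTPD1 no longer passed after adjustment for GC content and exonic length. Each runs from 250 bases before to 50 bases after the RefSeq start on GRCh38.p14, 5′ to 3′ on the gene's strand. Capitals mark matches to the motifs listed after the sequences.
CD274, chr9:5450292-5450591, plus strand: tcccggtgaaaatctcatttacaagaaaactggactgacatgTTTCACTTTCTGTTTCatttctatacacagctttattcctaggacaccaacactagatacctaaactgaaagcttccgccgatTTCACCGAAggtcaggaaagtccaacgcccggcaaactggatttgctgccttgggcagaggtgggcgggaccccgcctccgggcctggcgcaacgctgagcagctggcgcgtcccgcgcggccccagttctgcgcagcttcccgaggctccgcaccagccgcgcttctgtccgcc
VSIR, chr10:71773471-71773770, minus strand: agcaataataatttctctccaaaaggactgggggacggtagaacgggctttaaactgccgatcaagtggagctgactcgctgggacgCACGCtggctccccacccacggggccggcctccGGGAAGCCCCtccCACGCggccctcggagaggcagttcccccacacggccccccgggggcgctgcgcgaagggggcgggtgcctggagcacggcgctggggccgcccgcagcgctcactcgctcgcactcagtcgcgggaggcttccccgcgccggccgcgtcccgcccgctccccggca
CD47, chr3:108090982-108091281, minus strand: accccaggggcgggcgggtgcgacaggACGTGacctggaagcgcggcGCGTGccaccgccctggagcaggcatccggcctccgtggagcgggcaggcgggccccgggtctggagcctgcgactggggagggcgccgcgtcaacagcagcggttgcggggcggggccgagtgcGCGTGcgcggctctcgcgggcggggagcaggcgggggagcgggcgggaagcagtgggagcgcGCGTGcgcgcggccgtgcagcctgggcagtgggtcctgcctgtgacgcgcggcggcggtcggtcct
PVR, chr19:44643660-44643959, plus strand: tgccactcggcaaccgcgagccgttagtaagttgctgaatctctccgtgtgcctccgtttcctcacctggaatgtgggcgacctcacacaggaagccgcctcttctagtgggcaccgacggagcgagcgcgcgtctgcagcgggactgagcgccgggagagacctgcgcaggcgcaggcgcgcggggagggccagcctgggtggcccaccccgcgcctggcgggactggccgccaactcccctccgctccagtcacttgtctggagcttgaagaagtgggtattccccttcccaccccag

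The motifs, searched on both strands, were the kappaB consensus, the STAT element TTCNNNGAA, the interferon response core (GAAA, 2 bases of any kind, GAAA), the AP-1 element TGANTCA and the hypoxia response cores ACGTG and GCGTG. RefSeq held 15 windows for the 10 genes, 5 of them for ENTPD1 and 2 for CD276. The CD274 window held 2 overlapping interferon response cores 208 and 202 bases before the start, and a STAT element 125 bases before it. The interferon core was present in 3.57% and the STAT element in 7.66% of 35116 windows in the same table. In the VSIR window lay a kappaB match 130 bases before the start, a motif held by 11.3% of windows, and 2 copies of GCGTG that do not overlap it. CD47 had 1 ACGTG and 3 GCGTG, which were present in 21.4% and 36.5% of windows. No listed motif was found in the PVR window. The only other kappaB match was in 1 of the CD276 windows, and LGALS9 held the only other interferon core. The hypoxia cores were not particular to VSIR and CD47. GCGTG also lay in windows of ENTPD1, NECTIN2, NT5E and VTCN1, with 3 copies in NECTIN2, and ACGTG also lay in 1 CD276 window. A match is a string of letters and not a shown binding site.

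TNFAIP8 itself (ENSG00000145779, chromosome 5, 119268692 to 119399688, hg38) had 87318, 98811 and 62902 counts in TIPE libraries and 175, 158 and 104 counts in vector libraries, a log2 fold change of 9.18 (edgeR's quasi-likelihood test, adjusted p = 1.15e-22). Total counts ranged from 13957349 to 20345330 per library. Levels are given in FPKM, which scales a count to exonic length and library total. Fold changes from edgeR also scale each library by a normalisation factor (TMM), so they can differ from ratios of FPKM. Colon epithelial markers were abundant, with summed levels of 1610 to 1660 FPKM in TIPE libraries and 1250 to 1340 FPKM in vector libraries over 9 markers. Of the 7 past the expression filter, 4 were higher and 2 lower in TIPE libraries, and KRT18 was the most abundant with a mean of 612 FPKM. Immune and stromal markers were scarce. The summed level of 9 T and NK cell markers was 1.86 to 2.30 FPKM in TIPE and 1.15 to 1.35 FPKM in vector libraries, with CD4 highest, CD3E, CD3G, CD2 and KLRD1 at 0 throughout, and the 2 of them past the expression filter were higher in TIPE libraries. For 8 myeloid markers it was 0.57 to 0.95 FPKM in TIPE and 0.69 to 0.78 FPKM in vector libraries, with PTPRC, CD163 and MRC1 at 0. B cell markers summed to 0.05 to 0.07 FPKM in TIPE and 0.10 to 0.11 FPKM in vector libraries (4 markers, MS4A1 and CD79B among those at 0), endothelial ones to 0.25 to 0.32 FPKM in TIPE and 0.14 to 0.21 FPKM in vector libraries (5 markers, KDR at 0). Fibroblast ones summed to 2.36 to 3.32 FPKM in TIPE and 1.78 to 2.84 FPKM in vector libraries (6 markers, COL1A2 and COL3A1 at 0, LUM highest).

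Of the 10 genes, 6 passed the expression filter, a mean of at least 0.5 FPKM over the 6 libraries. VSIR rose in TIPE libraries, PVR, CD47 and ENTPD1 fell, and CD276 and NECTIN2 did not pass the test at an adjusted p under 0.05. These 4 calls among 6 genes stand against 41.5% of the 14205 genes tested, 20.9% higher and 20.7% lower. The groups did not overlap in normalised CPM (counts scaled to the library total times its TMM factor) at the same 4 genes. The same was so for 50.1% of all tested genes. The median log2 fold change of the 6 genes was -0.11, beside -0.00048 over all tested genes. With each library scaled to its total count alone, 2134 genes were higher and 3883 lower, in place of 2967 and 2935, and limma on log2(FPKM + 1) gave 1912 and 3242. The calls of the 6 genes were the same with library totals, while limma did not call ENTPD1. Fewer cells expressing a gene and less RNA per cell cannot be told apart in these bulk libraries.

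The levels spanned from PVR, above 92.4% of the tested genes, to VTCN1 with hardly a read. In both groups the order per exonic length was PVR, NECTIN2, CD276, CD47, VSIR and ENTPD1, and no 2 neighbours among these overlapped within a group. PVR made up 49.0% of the summed FPKM of the 10 genes in TIPE libraries and 53.7% in vector libraries. Below ENTPD1 the order was LGALS9, NT5E and CD274 in TIPE libraries and NT5E, LGALS9 and CD274 in vector libraries. LGALS9 and NT5E overlapped in each group, and LGALS9 and CD274 overlapped in vector libraries. VTCN1 was lowest in both.

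**Figure D1:**
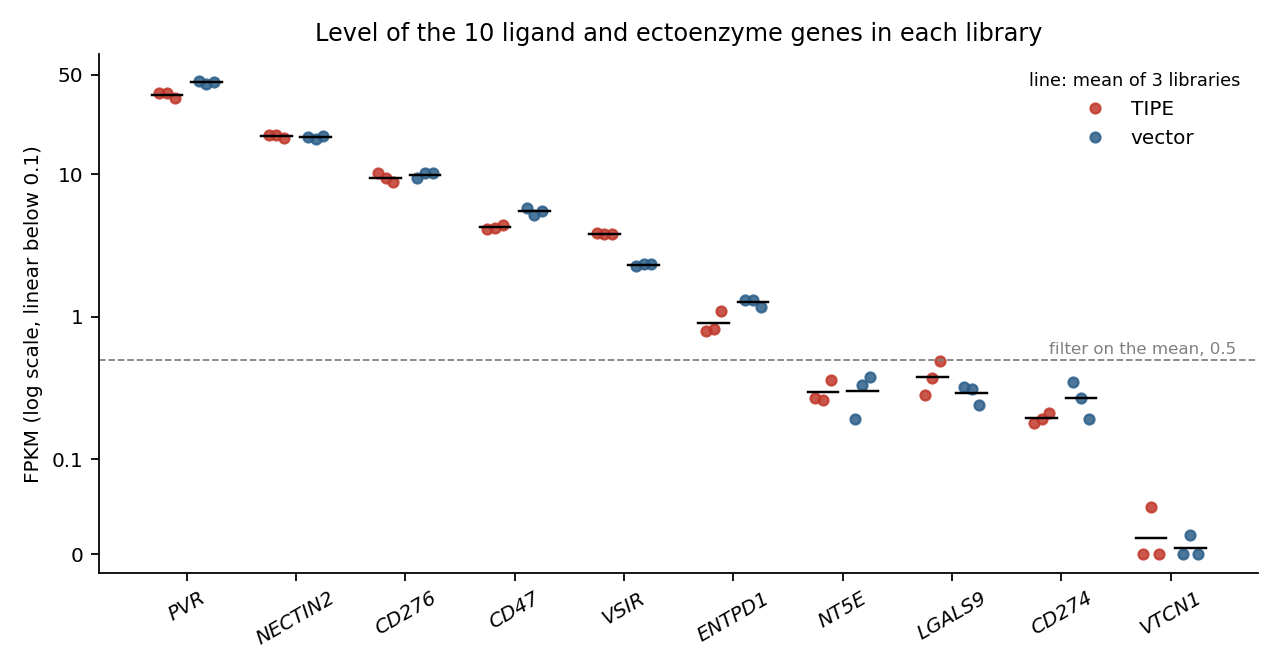
Level of each gene in FPKM on a log scale, linear below 0.1, with 3 TIPE libraries to the left of 3 vector libraries and a line at the mean. The 3 VSIR points of TIPE libraries lie above those of vector libraries, the PVR, CD47 and ENTPD1 points lie below, and the 4 genes on the right have a mean under the filter of 0.5 FPKM.

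VSIR (ENSG00000107738, chromosome 10, 71747556 to 71773520) encodes VISTA, a B7 relative known mainly from myeloid and T cells. It was at 3.87, 3.79 and 3.80 FPKM in TIPE libraries, against 2.28, 2.34 and 2.36 FPKM in vector libraries. The 3 TIPE values were all above the 3 vector values, with a gap far wider than the spread within either group. VSIR was 1.72-fold higher (95% interval 1.51 to 1.96), or 0.78 ± 0.09 (standard error) on the log2 scale (edgeR adjusted p = 9.59e-07). This was more than the median absolute log2 fold change of called genes, 0.35. VSIR lies within CDH23 on the opposite strand, but CDH23 had 12 to 25 counts per library, against 176 to 397 for VSIR.

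PVR (ENSG00000073008, chromosome 19, 44643798 to 44666162), which encodes CD155, was at 37.3, 37.1 and 34.7 FPKM in TIPE libraries and at 45.4, 42.9 and 44.7 FPKM in vector libraries. Every TIPE library lay below every vector library. PVR fell by 0.21 on the log2 scale with a standard error of 0.06 (adjusted p = 0.00453), so vector libraries held 1.16 times the TIPE level after TMM scaling. CEACAM19 overlaps its last part on the same strand, with 238 to 379 counts against 2951 to 5094 for PVR. NECTIN2 (ENSG00000130202, chromosome 19, 44846175 to 44889223), which encodes CD112, lies 180012 bases beyond the end of PVR on the same strand. Its levels were 18.8, 18.8 and 18.0 FPKM in TIPE libraries and 18.3, 17.9 and 18.7 FPKM in vector libraries, and the groups overlapped. It stood 0.09 ± 0.06 (standard error) higher on the log2 scale (adjusted p = 0.227), and the 95% interval of the fold was 0.979 to 1.16. The ratio of PVR to NECTIN2 within a library, both in FPKM, was 1.99, 1.97 and 1.93 in TIPE libraries and 2.48, 2.40 and 2.39 in vector libraries. These ratios did not overlap, and their exact two-sided permutation p was 0.10, the smallest that 3 against 3 libraries can give. The ratio reuses the PVR values above, so it adds no separate support for the fall of PVR.

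CD47 (ENSG00000196776, chromosome 3, 108043091 to 108091862) was at 4.16, 4.22 and 4.40 FPKM in TIPE libraries and at 5.83, 5.18 and 5.53 FPKM in vector libraries. The groups did not overlap, and CD47 fell by 0.30 on the log2 scale with a standard error of 0.07 (adjusted p = 0.00159). ENTPD1 (ENSG00000138185, chromosome 10, 95711779 to 95877266), which encodes the ATP-cleaving ectoenzyme CD39, was at 0.79, 0.82 and 1.1 FPKM in TIPE libraries and at 1.32, 1.31 and 1.17 FPKM in vector libraries. TIPE replicate 3 came close to vector replicate 3, and the other TIPE libraries lay clearly lower. ENTPD1 fell by 0.43 on the log2 scale with a standard error of 0.11 (adjusted p = 0.00399), or by 0.57 without TIPE replicate 3. ENTPD1-AS1 overlaps it on the opposite strand with 51 to 94 counts, against 186 to 365 for ENTPD1, and the use of strand in the counting is unknown.

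CD276 (ENSG00000103855, chromosome 15, 73683966 to 73714514), which encodes B7-H3, was at 10.3, 9.41 and 8.78 FPKM in TIPE libraries and at 9.45, 10.2 and 10.3 FPKM in vector libraries. The groups overlapped, and the fold was 1.00 with a 95% interval of 0.905 to 1.11 (adjusted p = 0.990).

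**Figure D2:**
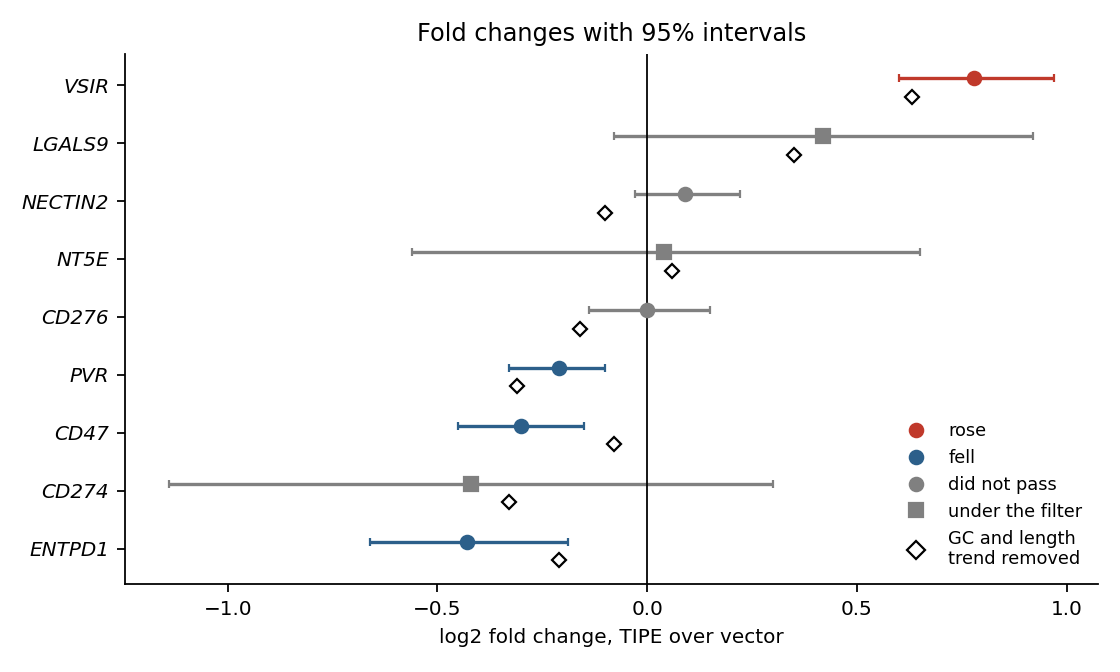
Log2 fold change of TIPE over vector with its 95% interval for 9 of the 10 genes, VTCN1 being left out because its interval runs from -2.12 to 4.71. Open diamonds give the value after the trend of each library on GC content and exonic length was removed, where VSIR stays at 0.63 and PVR at -0.31 and CD47 lies at -0.08.

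Fold changes over all genes followed the GC content of the transcript. When genes were split by GC content into 5 bins of 2823, the bin with the highest GC content, which holds VSIR, NECTIN2 and CD276, had a median log2 fold change of 0.19. The median was 0.10 in the next bin, with PVR, -0.10 in the bin of ENTPD1 and -0.21 in the bin with the lowest GC content, with CD47. After adjustment, in which the trend of each library on GC content and exonic length was taken out, VSIR stood at 0.63 on the log2 scale (adjusted p = 1.27e-05) and PVR at -0.31 (adjusted p = 5.24e-05). CD47 was then at -0.08 (adjusted p = 0.397) and ENTPD1 at -0.21 (adjusted p = 0.18), and neither passed. CD276 was at -0.16 (adjusted p = 0.0531) and NECTIN2 at -0.10 (adjusted p = 0.149), below 0 where the uncorrected NECTIN2 value was above it. The part of GC content in these results was not tested.

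**Figure D3:**
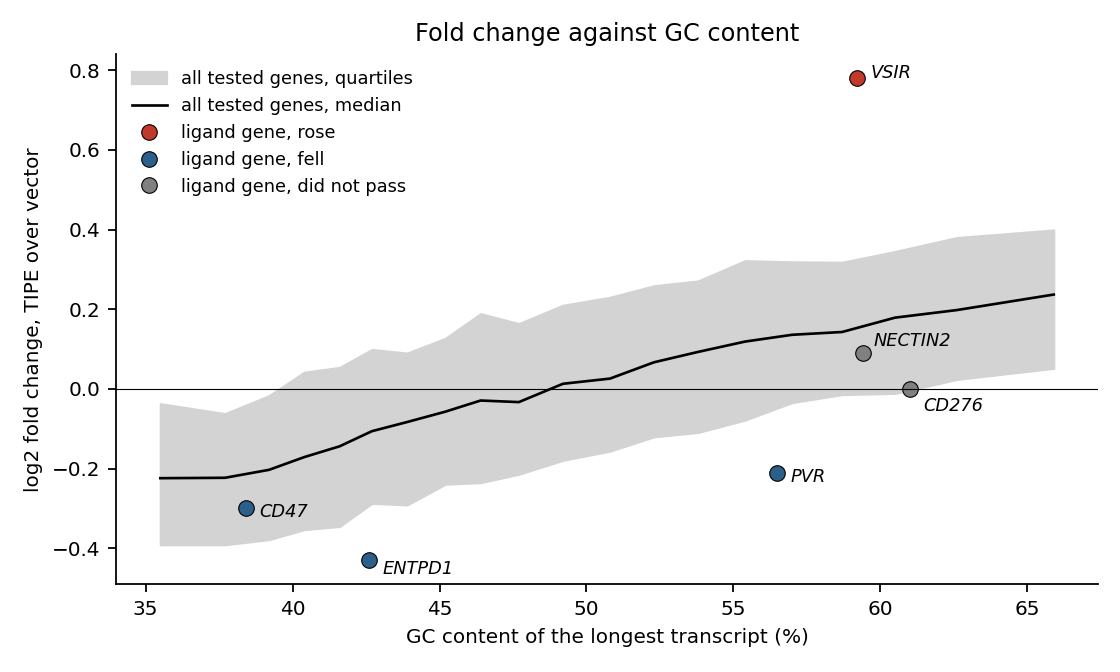
Log2 fold change of TIPE over vector against the GC content of the longest transcript, with the median (line) and quartiles (band) of all tested genes in 20 bins of GC content and the 6 ligand genes past the filter as points. CD47 lies inside the band for its GC content, while VSIR lies above the band and PVR and ENTPD1 lie below it.

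The remaining 4 genes were scarce. CD274 (ENSG00000120217, chromosome 9, 5450503 to 5470566), which encodes PD-L1, had 12, 16 and 12 counts in TIPE libraries and 22, 22 and 11 counts in vector libraries, or 0.18 to 0.21 FPKM in TIPE and 0.19 to 0.35 FPKM in vector libraries. Vector replicates 1 and 2 were above all TIPE libraries and vector replicate 3 was within their range. Summed counts, each divided by the summed totals of the same libraries, gave a ratio of 0.707 (95% counting interval 0.458 to 1.08). ENSG00000286162 overlaps CD274 on the opposite strand with 5 to 17 counts. LGALS9 (ENSG00000168961, chromosome 17, 27629798 to 27649560) had 26, 43 and 39 counts in TIPE libraries and 28, 35 and 20 counts in vector libraries, a ratio of 1.26 (0.941 to 1.70). TIPE replicate 1 lay inside the vector range in FPKM. LGALS9B and LGALS9C are close copies, and reads shared with them could not be told apart. NT5E (ENSG00000135318, chromosome 6, 85449584 to 85495791), which encodes CD73, had 20, 24 and 23 counts in TIPE libraries and 13, 29 and 25 counts in vector libraries, a ratio of 0.972 (0.682 to 1.38). VTCN1 (ENSG00000134258, chromosome 1, 117143587 to 117210960) had 0, 3 and 0 counts in TIPE libraries and 0, 1 and 0 counts in vector libraries, a ratio of 2.92 with an interval of 0.234 to 153, so nothing can be said of its direction. In an edgeR fit without the filter, where 20.1% of 29836 genes passed, 0 of these 4 genes passed and 0 had an unadjusted p under 0.05. DESeq2 and limma on log2(FPKM + 1) also called 0 of them, with no adjusted p from DESeq2 for VTCN1. A change of the size seen for PVR was not detectable at these counts.

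Other genes that supply or restrain such signals were followed in lists by role. Their counts are set beside the 20.9% higher and 20.7% lower of all tested genes. The lists were chosen with earlier results of these data known, so this comparison is a description and not an independent test.

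Of 17 genes of the B7 and butyrophilin families, HVEM included, 7 passed the filter, 2 rose, 1 fell and 4 did not pass the test, with a median log2 fold change of 0.20. TNFRSF14, which encodes HVEM, the ligand of BTLA, was at 2.16, 1.65 and 1.87 FPKM in TIPE libraries and 1.23, 1.39 and 1.42 FPKM in vector libraries, a log2 fold change of 0.55 (adjusted p = 0.00100). TNFRSF14-AS1 overlaps it on the opposite strand with up to 214 counts, against at least 117 for TNFRSF14. BTN3A2 had a log2 fold change of 0.34. NCR3LG1, which encodes B7-H6, an activating ligand of the natural killer receptor NKp30, was at 32.2, 28.1 and 19.0 FPKM in TIPE libraries and at 41.6, 39.9 and 38.7 FPKM in vector libraries. It fell by 0.53 on the log2 scale (adjusted p = 0.000721), and by 0.34 without TIPE replicate 3 (adjusted p = 9.55e-07), with adjusted p from 1.36e-15 to 0.0395 over the alternatives. In that leave-out 2 genes of the list fell. PDCD1LG2, which encodes PD-L2, the other ligand of PD-1, had 0 counts in every library, which allows up to 0.147 to 0.215 CPM.

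Of 16 other ligands and enzymes, mostly inhibitory or don't-eat-me, 7 passed the filter. Of these, 5 rose and 2 did not pass the test, with a median log2 fold change of 0.37. After GC and length adjustment 4 rose and the median was 0.27. The list also holds the costimulatory ligands TNFSF9 and CD70, named after their values were seen. TNFSF9 enters the median at 0.94 but did not pass (edgeR adjusted p = 0.0551), and CD70 had no counts. CD24, the don't-eat-me ligand of Siglec-10, was at 32.7, 32.9 and 37.3 FPKM in TIPE libraries and at 19.7, 21.1 and 19.8 FPKM in vector libraries. The groups lay far apart, with a log2 fold change of 0.83 and a standard error of 0.06 (adjusted p = 4.11e-09), and 0.80 after GC and length adjustment. CD24 has processed pseudogenes that can share its reads. Among the other risers were the galectins LGALS1 (0.44, or 0.24 after adjustment) and LGALS3 (0.31), and CEACAM1, a ligand of TIM-3 (0.37). CEACAM1 overlapped between the groups in FPKM, with 2.45 in TIPE replicate 3 and 2.46 in vector replicate 3. Its call was lost when TIPE replicate 2 (adjusted p = 0.0556) or vector replicate 1 (0.0648) was left out, within 0.000367 to 0.0895 over the alternatives. B2M, the light chain of MHC class I, which also engages the macrophage receptor LILRB1, was at -0.11 on the log2 scale (adjusted p = 0.126). It passed without TIPE replicate 3 (adjusted p = 0.00420, within 0.00420 to 0.809), and with library totals 1 gene of the list, B2M, fell (adjusted p = 0.0154).

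Of 8 other nectins and nectin-like molecules, 4 passed the filter, 1 rose, 2 fell and 1 did not pass, with a median of -0.17. After GC and length adjustment 3 were lower and the median was -0.29, since CADM4, named after its values were seen, then passed (-0.34, adjusted p = 0.0386). CADM1, the nectin-like ligand of CRTAM, was at 1.16, 1.14 and 1.14 FPKM in TIPE libraries and 0.70, 0.77 and 0.75 FPKM in vector libraries, a log2 fold change of 0.70. AFDN, afadin, which ties nectins to actin, had one of -0.40 (-0.26 after adjustment). NECTIN1 was at 23.3, 21.4 and 19.1 FPKM in TIPE libraries and at 25.5, 25.8 and 26.6 FPKM in vector libraries and had one of -0.22. Without vector replicate 3 it did not pass (adjusted p = 0.0543, the highest over alternatives from 8.83e-05), which left 1 gene of the list lower, and without TIPE replicate 3 it was at -0.14.

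Of 13 natural killer cell ligands and adhesion molecules, 9 passed the filter, 1 rose, 4 fell and 4 did not pass, with a median of -0.06, or -0.14 after GC and length adjustment. MICA, a ligand of the activating receptor NKG2D, was at 1.09, 1.34 and 0.80 FPKM in TIPE libraries and 1.65, 1.72 and 2.10 FPKM in vector libraries, and fell by 0.65 on the log2 scale (adjusted p = 0.00536). ULBP2, another NKG2D ligand, was at 3.02, 3.79 and 3.17 FPKM in TIPE libraries and 5.53, 5.30 and 5.33 FPKM in vector libraries, and fell by 0.61 (adjusted p = 0.00210). For neither gene did the groups overlap. NCR3LG1, described above, and MICB, named after its values were seen, also fell. MICA and MICB are close relatives whose reads may be shared. ICAM2, an integrin ligand, had a log2 fold change of 0.68, 0.49 after adjustment, and overlaps PRR29 on the opposite strand.

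**Figure D4:**
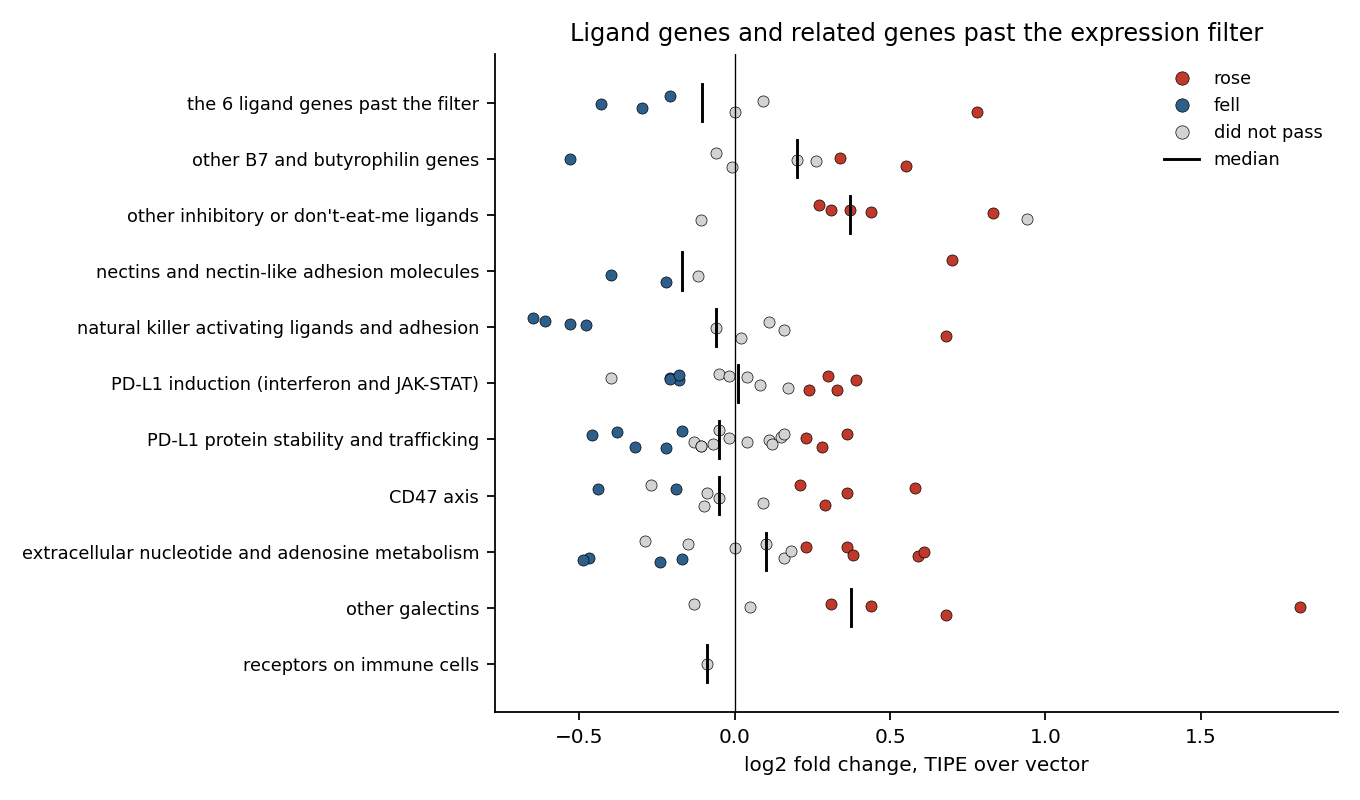
Log2 fold change of TIPE over vector for each gene past the expression filter, by list, with a line at the list's median. The list of inhibitory or don't-eat-me ligands, which also holds the costimulatory TNFSF9, and the galectins lie mostly above 0. Their medians were 0.37 each, or 0.27 and 0.26 after GC and length adjustment, and LGALS1 and LGALS3 are in both lists. The lists on PD-L1 and CD47 spread to both sides of 0.

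Of 16 genes of the interferon and JAK-STAT pathway, which induces PD-L1, 14 passed the filter, 4 rose, 4 fell and 6 did not pass, with a median of 0.01, or 0.05 after GC and length adjustment. IRF1, the transcription factor that induces CD274 on interferon-gamma, was at 4.37, 4.44 and 4.60 FPKM in TIPE libraries and 4.00, 3.58 and 3.86 FPKM in vector libraries, a log2 fold change of 0.30 (adjusted p = 0.000935). STAT2 (0.39) and the receptor chain IFNGR2 (0.33, or 0.17 after adjustment) also rose. The kinase TYK2 had a log2 fold change of 0.24, but did not pass without TIPE replicate 2 (adjusted p = 0.0512) or after adjustment (0.11, adjusted p = 0.166, within 8.49e-05 to 0.219 over the alternatives). JAK1 fell by 0.21, and was at -0.08 after adjustment (adjusted p = 0.230, within 0.000407 to 0.309). After adjustment 1 gene of the list fell, or 0 with a replicate block as well. TMEM50B overlaps IFNGR2 on the opposite strand with up to 399 counts, and RAVER2 overlaps JAK1 with up to 802 counts. Without TIPE replicate 2, vector replicate 1 or vector replicate 2, 2 genes fell.

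Of 19 genes for the stability and trafficking of PD-L1 protein, 19 passed the filter, 3 rose, 5 fell and 11 did not pass, with a median of -0.05. CMTM6 and CMTM4, which protect PD-L1 from degradation, were both lower. CMTM6 was at 15.8, 15.2 and 17.1 FPKM in TIPE libraries and 19.6, 20.6 and 18.4 FPKM in vector libraries (log2 fold change -0.22, adjusted p = 0.00782). Its call was lost when vector replicate 2 was left out (adjusted p = 0.0646) and after GC and length adjustment (-0.11, adjusted p = 0.113, within 0.000285 to 0.172 over the alternatives). CMTM7 overlaps CMTM6 on the opposite strand with up to 561 counts, against at least 922. CMTM4 was at 17.8, 17.1 and 15.7 FPKM in TIPE libraries and 23.9, 23.2 and 22.0 FPKM in vector libraries (-0.38, adjusted p = 3.57e-05). GSK3B, a kinase that marks PD-L1 for degradation, had a log2 fold change of -0.46 (-0.21 after adjustment), and CUL3, part of a ubiquitin ligase for PD-L1, one of -0.32 (-0.05 after adjustment, adjusted p = 0.490, within 5.78e-07 to 0.511). TRAPPC4, which aids recycling of PD-L1, had one of 0.36. SLC37A4 overlaps TRAPPC4 on the opposite strand with up to 1023 counts, against at least 792 for TRAPPC4. With library totals 9 genes of the list fell. Without vector replicate 2, 3 fell, and without TIPE replicate 3, 6 rose.

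Of 14 genes that act with CD47, 11 passed the filter, 4 rose, 2 fell and 5 did not pass, with a median of -0.05, or 0.06 after GC and length adjustment. QPCTL, the enzyme that modifies CD47 for binding to SIRPA, was at 5.48, 5.31 and 5.30 FPKM in TIPE libraries and at 3.05, 4.09 and 4.16 FPKM in vector libraries. Its groups did not overlap, with a log2 fold change of 0.58 (adjusted p = 0.000371) and one of 0.38 after GC and length adjustment. SNRPD2 overlaps QPCTL on the opposite strand with up to 4760 counts, against at least 132 for QPCTL. CALR, calreticulin, an eat-me signal, was 0.21 higher on the log2 scale (adjusted p = 0.00693). Its call was lost when vector replicate 1 (adjusted p = 0.0524) or vector replicate 2 (0.0582) was left out and after adjustment (0.06, adjusted p = 0.381, within 0.00226 to 0.416). UBQLN1, a ubiquilin that binds CD47, had a log2 fold change of -0.44 (-0.23 after adjustment). LRP1, the receptor of calreticulin, had one of 0.36, which was 0.21 without TIPE replicate 1 (adjusted p = 0.15). LRP1 was also lost without TIPE replicate 2 (0.0608), vector replicate 1 (0.0543) and vector replicate 3 (0.104), within 3.13e-06 to 0.368. STAT6 overlaps LRP1 on the opposite strand with up to 1689 counts, against at least 261 for LRP1. The integrin subunit ITGA2 had a log2 fold change of 0.29. Its call was lost without TIPE replicate 1 (adjusted p = 0.0623) and without vector replicate 3 (0.0751), within 4.53e-05 to 0.163. The list then had 2 risers in each case, also without vector replicate 1, and 1 with library totals. SIRPA itself was at 3.86, 3.41 and 3.66 FPKM in TIPE libraries and 3.96, 4.19 and 4.03 FPKM in vector libraries (-0.09, adjusted p = 0.432).

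Of 31 genes of extracellular nucleotide and adenosine metabolism, 15 passed the filter, 5 rose, 4 fell and 6 did not pass, with a median of 0.10, or -0.02 after GC and length adjustment. ADA, the deaminase that removes adenosine, was at 8.77, 9.19 and 8.32 FPKM in TIPE libraries and 5.77, 5.99 and 6.35 FPKM in vector libraries, a log2 fold change of 0.61 (adjusted p = 1.04e-05) and one of 0.47 after that adjustment. PKIG overlaps ADA on the opposite strand with up to 328 counts, against at least 248 for ADA. Relatives of ENTPD1 went both ways. ENTPD8, an ectonucleotidase of the cell surface, had a log2 fold change of 0.59 (0.32 after adjustment, adjusted p = 0.139, within 0.000322 to 0.139), and the intracellular ENTPD7 and ENTPD5 had values of -0.49 and -0.47 (-0.31 for ENTPD5 after adjustment). ENTPD8 overlaps NOXA1 on the opposite strand, with up to 186 counts against at least 60 for ENTPD8. ENTPD7, with at least 249 counts, overlaps COX15 on the opposite strand (up to 1165) and CUTC on the same strand (up to 571). ENTPD5 overlaps COQ6 on the opposite strand, with up to 217 counts against at least 163 for ENTPD5. The adenosine receptor ADORA2B was at 7.59, 7.36 and 7.39 FPKM in TIPE libraries and 7.41, 8.40 and 7.60 FPKM in vector libraries (adjusted p = 0.996). ADORA2A and DPP4, the surface anchor of ADA, were at 0 to 0.04 FPKM and 0 to 0.01 FPKM over the 6 libraries. Without TIPE replicate 3, 8 genes of the list rose, without TIPE replicate 2, 2 fell, and after adjustment 3 rose.

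Of 13 genes of other galectins, the galectin-binding LGALS3BP included, 6 passed the filter, 4 rose and 2 did not pass, with a median of 0.37. After GC and length adjustment 5 rose and the median was 0.26. Beside LGALS1 and LGALS3, which also stand in the list of inhibitory ligands, LGALS3BP was at 117, 115 and 116 FPKM in TIPE libraries and at 73.3, 72.5 and 82.0 FPKM in vector libraries, a log2 fold change of 0.68 (adjusted p = 3.50e-08). LGALS7B was at 5.18, 4.32 and 5.21 FPKM in TIPE libraries and at 1.39, 1.87 and 0.94 FPKM in vector libraries, a log2 fold change of 1.82 (adjusted p = 1.55e-05), but LGALS7 is a near-identical copy. Of 12 receptors of these ligands on immune cells, 1, SIRPA, passed the filter. TIGIT had 0 counts in every library, and CD226 was at 0 to 0.01 FPKM.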

How the data were processed

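Poly(A) RNA of 6 SW480 libraries was sequenced, per the labels' protocols. The authors deposited 1 table with a count and an FPKM value per gene and library. The deposited counts are whole and have no visible scaling. Each FPKM value the authors gave equals the count over exonic kilobases and the library total (within 0.005). Reads were aligned to hg38 by HISAT2 2.0.1, per the submitters' processing notes. The counter, annotation and strand setting were not given in the sources used here.

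The main test covered genes averaging 0.5 FPKM or more over the 6 libraries, and was made with edgeR 4.0.16 (quasi-likelihood, TMM factors of 0.962 to 1.03, group alone), with two-sided p-values adjusted by Benjamini-Hochberg over all tested genes. Genes under the filter were tested in the same way among all genes with at least 1 count. Standard errors were the absolute log2 fold change over the square root of F. Alternatives used DESeq2 1.42.0, limma 3.58.1 and R 4.3.3. The GC and length trend, from the longest GENCODE 29 transcript and the exonic size, was fitted in each library by splines with 5 degrees of freedom and removed as an offset. Known fold changes in simulated counts were used to check the edgeR step. The upper limit behind a 0 is 3 counts (0.147 to 0.215 CPM per library). Intervals of counts cover counting error only.

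The 10 genes and the lists were chosen with earlier results of these data known. All 10 genes are named, with TNFAIP8, up to 4 called genes per list with the largest absolute log2 fold change, and direct partners fixed by name. Some genes that this rule covers are not reported here. No 2 libraries held one set of reads: the chi-square per gene was 21.8 to 39.3 between groups and 2.24 to 7.64 within them. TIPE replicate 3 stood apart within its group, at 7.64 with TIPE replicate 1 and 7.17 with TIPE replicate 2. Every other pair within a group was at 2.24 to 3.62.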

Additional observations from a re-analysis of the deposited data

How the results depend on the processing

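Over 16 alternatives, the calls of VSIR (log2 fold change 0.53 to 0.80) and PVR (-0.31 to -0.17) held throughout. CD47 lost its call after GC and length adjustment (-0.081, adjusted p = 0.397) and after that adjustment together with a replicate block (-0.080, adjusted p = 0.440). ENTPD1 lost its call in the same fits (-0.205 and -0.210) and in limma on log2(FPKM + 1) and log2(FPKM + 0.1) (-0.255 and -0.457, adjusted p = 0.0630 and 0.0642). The genes past the filter that fell then numbered 1 in both fits after adjustment. Leaving out 1 library changed no call among the 10 genes. CD276, NECTIN2 and the 4 scarce genes passed under none of the alternatives that gave them a value. Over all genes, limma called 1912 and 1902 genes higher, against 2967. The cause was not tested.

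With the replicate block alone no call among the 10 genes changed (PVR adjusted p = 0.0106), and 2804 genes were higher and 2797 lower. Libraries with the same number did not deviate together (correlations of -0.000853, -0.0244 and -0.0411 over genes), so the number was not taken to pair them. The level order was the same in TPM, which rescales all genes of a library alike and so cannot change the order within a library. Depth limits CD274, LGALS9, NT5E and VTCN1, which had at most 108 counts per group.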
